A study of Homo sapiens with 6 samples.

Results

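The short structured RNAs made by RNA polymerase III were followed in A549, a long established line of human lung adenocarcinoma cells. The list held 10 of them: the RNA of RNase P (RPPH1), the RNA of RNase MRP (RMRP), the 7SK RNA (RN7SK), the vault RNAs VTRNA1-1, VTRNA1-2 and VTRNA1-3, and the Y RNAs RNY1, RNY3, RNY4 and RNY5. Members were chosen by gene symbol in the platform's probe annotation, by a rule that also used their log2 levels by group on these arrays, so the members' differences between groups are a description. Of the 10, 6 had a probe set that names only them, out of 22395 genes tested, and each of the 6 had 1 probe set. The 4 Y RNAs had none in the table and were left out. There were 3 groups of 2 arrays each: Comp.4 at 2 µM, Comp.2 at 2 µM, and vehicle only. All 3 were A549 cells sampled on day 2, and treatment began 24 hours after plating. Comp.4 and Comp.2 are code names for forms of a PIP compound, and the series title calls them sequence-specific inhibitors of histone acetyltransferases.

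RNA polymerase III makes short, abundant, untranslated RNAs, and growth signals and its repressor MAF1 set its output. RPPH1 is the catalytic RNA that trims the 5′ end of precursor tRNAs, RMRP is its relative in ribosomal RNA processing, and RN7SK holds the elongation kinase P-TEFb in an inactive particle. Vault RNAs are found partly within the vault, a large barrel-shaped particle of the cytoplasm, and VTRNA1-1 is known as a regulator of autophagy. The genes of RPPH1, RMRP and RN7SK are read from promoters lying before the gene, whereas vault RNA genes also carry promoter elements inside the gene, bound by the factor TFIIIC.

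The values are log2 signals that the authors had made by RMA, and the medians of the 6 arrays over all probe sets lay between 4.55 and 4.56. All 6 epithelial markers were above the median gene level of 5.35, from 6.60 (KRT19) to 10.04 (CDH1) in Comp.4 cells, 6.81 to 10.35 in Comp.2 cells and 6.31 to 10.30 in vehicle cells. Among them KRT19, KRT8 and KRT7 had Comp.4 minus vehicle differences of 0.29, 0.13 and 0.06, and CDH1, KRT18 and EPCAM of -0.27, -0.19 and -0.01. The leukocyte antigen PTPRC and the fibroblast marker DCN were at 2.68 and 2.82 in Comp.4 cells, 2.71 and 2.77 in Comp.2 cells, and 2.70 and 2.76 in vehicle cells. Of the other markers of fibroblasts, endothelium and leukocytes, CD14, CD79A and COL1A1 were above the median gene in all groups, at 6.06, 6.06 and 5.43 in Comp.4 cells, 5.97, 6.03 and 5.43 in Comp.2 cells, and 6.03, 5.99 and 5.45 in vehicle cells. The labels do not say whether the 2 arrays of a group came from separate cultures, so the spread between them may be technical, and precision is limited by how few arrays there are. In bulk RNA of this kind, a change in the share of cells that make a transcript and a change in its amount per cell cannot be told apart. Probe sets differ in brightness for reasons of their own, so levels are compared across arrays within a gene, and a bright or dim probe set says nothing of how abundant its RNA is beside another.

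VTRNA1-3 differed most between groups. Its log2 level was 8.72 and 8.64 on the Comp.4 arrays, 7.88 and 7.83 on the Comp.2 arrays, and 7.93 and 7.88 on the vehicle arrays. Both Comp.4 arrays stood above the other 4, with a gap of 0.70 to the higher vehicle array. The group means were 8.68 ± 0.06 in Comp.4 cells, 7.85 ± 0.03 in Comp.2 cells and 7.91 ± 0.04 in vehicle cells (SD, n = 2 each). Comp.4 minus vehicle was 0.77 (SE 0.07, 95% interval 0.60 to 0.94), a 1.71-fold higher signal. That difference ranked 24 from the highest of 22395 genes. Comp.2 minus vehicle was -0.05 (SE 0.07, interval -0.23 to 0.12), and although both Comp.2 arrays lay below both vehicle arrays, the gap was only 0.0025.

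VTRNA1-1, the best studied of the vault RNAs, had a dim probe set, below the level of the median gene. Its log2 levels were 4.07 and 4.24 on the Comp.4 arrays, 3.87 and 4.04 on the Comp.2 arrays, and 3.73 and 3.75 on the vehicle arrays. Both compounds' arrays lay above both vehicle arrays, and the Comp.4 and Comp.2 arrays were separated by less than the spread within either group. The mean was 4.15 ± 0.12 in Comp.4 cells, 3.96 ± 0.12 in Comp.2 cells and 3.74 ± 0.01 in vehicle cells (SD, n = 2 each). Comp.4 minus vehicle was 0.41 (SE 0.09, interval 0.19 to 0.64), and Comp.2 minus vehicle was 0.22 (SE 0.09, interval -0.004 to 0.44).

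VTRNA1-2 also had a dim probe set, with log2 levels of 3.32 and 3.26 on the Comp.4 arrays, 3.22 and 3.04 on the Comp.2 arrays, and 2.98 and 3.23 on the vehicle arrays. The Comp.4 arrays lay above the rest by a gap of only 0.03 to the higher vehicle array, and the vehicle arrays were farther apart than that. Comp.4 minus vehicle was 0.18 (SE 0.11, interval -0.07 to 0.44), and Comp.2 minus vehicle was 0.03 (SE 0.11, interval -0.23 to 0.28). Once the arrays were scaled on other short RNAs, as described further on, Comp.4 minus vehicle was -0.08, where the median of all genes was -0.25. The VTRNA1 genes form a cluster of similar sequence, and how far their probes share signal was not tested. Dim probe sets sit near the background floor of RMA, which can make their fold changes too small, and this was not tested here.

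VTRNA2-1, a related gene outside the cluster and not a member, had log2 levels of 5.71 and 5.65 on the Comp.4 arrays, 5.62 and 5.28 on the Comp.2 arrays, and 5.57 and 5.65 on the vehicle arrays. Its Comp.4 and vehicle arrays overlapped.

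RPPH1 had log2 levels of 6.57 and 6.45 on the Comp.4 arrays, 5.95 and 5.83 on the Comp.2 arrays, and 5.90 and 5.83 on the vehicle arrays. The Comp.4 arrays stood apart above the rest, by 0.54 from the higher vehicle array, and the Comp.2 and vehicle arrays overlapped. Its mean was 6.51 ± 0.09 in Comp.4 cells, 5.89 ± 0.08 in Comp.2 cells and 5.87 ± 0.05 in vehicle cells (SD, n = 2 each). Comp.4 minus vehicle was 0.64 (SE 0.08, interval 0.44 to 0.84), a 1.56-fold higher signal that ranked 53 from the highest of 22395 genes. Comp.2 minus vehicle was 0.02 (SE 0.08, interval -0.18 to 0.22).

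RMRP, which shares most of its protein subunits with RPPH1, had a bright probe set. Its log2 levels were 12.31 and 12.32 on the Comp.4 arrays, 12.25 and 12.20 on the Comp.2 arrays, and 12.20 and 12.25 on the vehicle arrays. The Comp.4 arrays lay above the rest by 0.06. The mean was 12.32 ± 0.01 in Comp.4 cells, 12.22 ± 0.04 in Comp.2 cells and 12.22 ± 0.04 in vehicle cells (SD, n = 2 each), so Comp.4 minus vehicle was 0.10 (SE 0.07, interval -0.07 to 0.26). On the short RNA scale it was -0.17, where the median of all genes was -0.25. On each array the level of RMRP was within 1 log2 unit of that array's highest value, which was between 13.12 and 13.26. Whether its probes were near saturation was not tested.

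RN7SK had log2 levels of 9.59 and 9.68 on the Comp.4 arrays, 9.53 and 9.59 on the Comp.2 arrays, and 9.53 and 9.59 on the vehicle arrays. The lower Comp.4 array exceeded the higher vehicle array by 0.0059, so that the groups barely separated. Comp.4 minus vehicle was 0.08 (SE 0.07, interval -0.10 to 0.25), and Comp.2 minus vehicle was -0.002 (SE 0.07, interval -0.18 to 0.18). On the short RNA scale Comp.4 minus vehicle was -0.19, where the median of all genes was -0.25. The Comp.4 minus vehicle differences of RMRP and RN7SK were smaller than those of RPPH1 and VTRNA1-3. These values took part in the choice of the members and come from different probe sets, and differences between members were not tested.

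**Figure D1:**
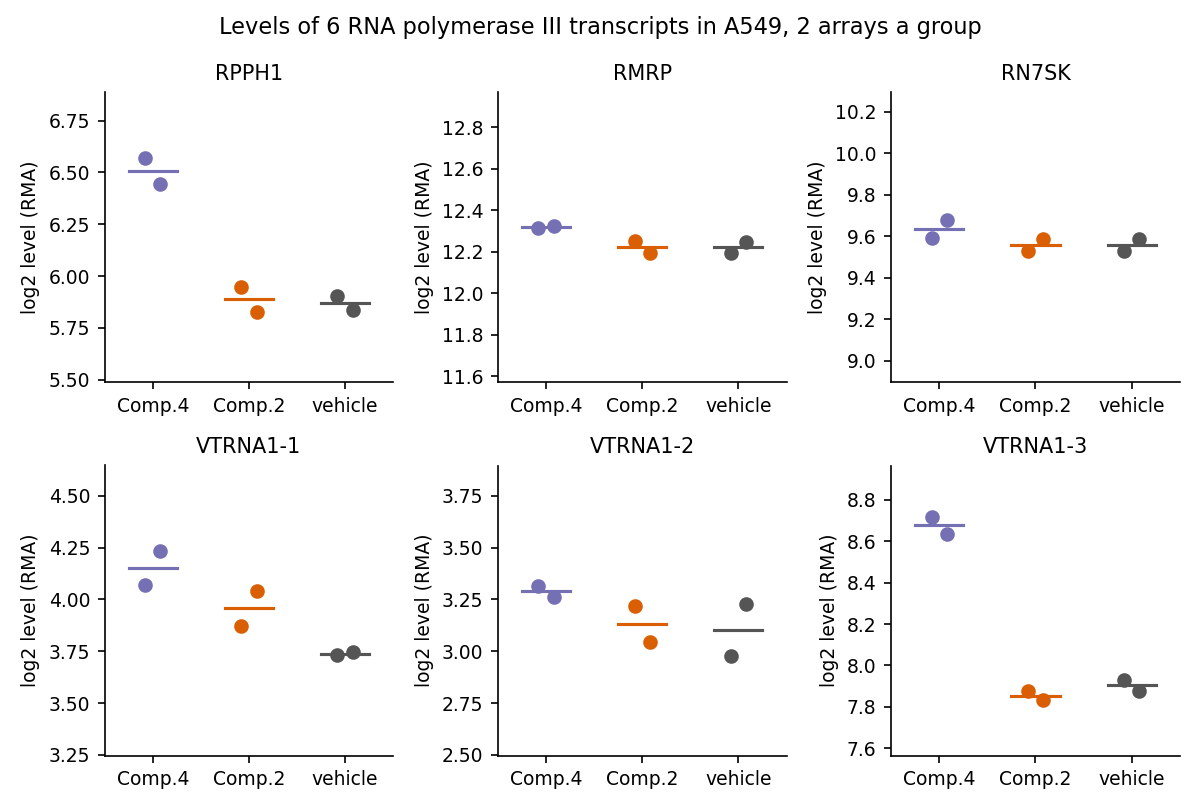
Log2 signal (RMA) of the 6 measured RNAs, 1 panel per RNA with its own vertical scale. Points are single arrays and horizontal lines are means of 2 arrays, for Comp.4, Comp.2 and vehicle from left to right. The Comp.4 arrays of VTRNA1-3 (8.72 and 8.64) and RPPH1 (6.57 and 6.45) stand clear of the other 4 arrays, while those of RN7SK (9.59 and 9.68) barely separate from vehicle (9.53 and 9.59). On the short RNA scale Comp.4 minus vehicle is -0.19 for RN7SK, where the median of all genes is -0.25.

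Set beside each other, the 6 RNAs gave the following counts. In Comp.4 against vehicle, the Comp.4 arrays lay above the vehicle arrays for 6 of 6 members, where 27.2% of all 22395 genes did so and 22.2% were separated downward. On the short RNA scale the mean difference was above 0 for 3 of the 6, where the median of all genes was -0.25. Without that scaling the median difference of the members was 0.30, beside 0.02 over all genes. VTRNA1-3 alone passed limma's threshold, an adjusted p of 0.05 by the Benjamini-Hochberg method over all genes, where 0.147% of all genes passed it (0.0536% higher and 0.0938% lower). In fits without 1 of the 6 arrays, which leave 1 array in a group, VTRNA1-3 stayed between 0.73 and 0.81 and RPPH1 between 0.58 and 0.70. Calls in those fits are given further on, with those over all genes. With no array left out, 3 members were higher and 0 lower at an unadjusted p under 0.05, where 8.64% and 7.88% of all genes were. Since these values took part in the choice of the members, the shares are printed for comparison and nothing is read from them.

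In Comp.2 against vehicle, 1 member was separated upward (VTRNA1-1) and 1 downward (VTRNA1-3), and 4 overlapped. Over all genes 22.7% were separated upward and 21.0% downward. The members' median was 0.01 and that of all genes 0.004. No member passed limma's threshold, where 0.196% of all genes did (0.134% higher and 0.0625% lower), and none had an unadjusted p under 0.05. With a variance trend in limma 0 members passed, where 388 of the 22395 genes did. Comparisons of the compounds with vehicle share the vehicle arrays, so their values are given side by side only.

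Comp.4 and Comp.2 were given at the same dose and for the same time, which allowed a direct comparison of 1 pair of compounds. VTRNA1-3 was higher in Comp.4 cells by 0.82 (SE 0.07, interval 0.65 to 0.99) and RPPH1 by 0.62 (SE 0.08, interval 0.42 to 0.82), which is 1.77-fold and 1.54-fold. VTRNA1-1 differed by 0.20 (SE 0.09, interval -0.03 to 0.42) and VTRNA1-2 by 0.16 (SE 0.11, interval -0.10 to 0.41). For RMRP the difference was 0.10 (SE 0.07, interval -0.07 to 0.26) and for RN7SK 0.08 (SE 0.07, interval -0.10 to 0.26), so a difference of up to 0.26 between the compounds is within both intervals. The Comp.4 arrays lay above the Comp.2 arrays for 6 of 6 members, where 23.7% of all genes were separated upward and 21.6% downward. On the short RNA scale 2 of the 6 were higher, where the median of all genes was -0.32. Without that scaling 2 members, VTRNA1-3 and RPPH1, passed limma's threshold, where 0.371% of all genes did (0.192% higher and 0.179% lower). In fits without 1 of the 6 arrays VTRNA1-3 differed by 0.78 to 0.86 and RPPH1 by 0.56 to 0.68, and calls in those fits are given further on.

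**Figure D2:**
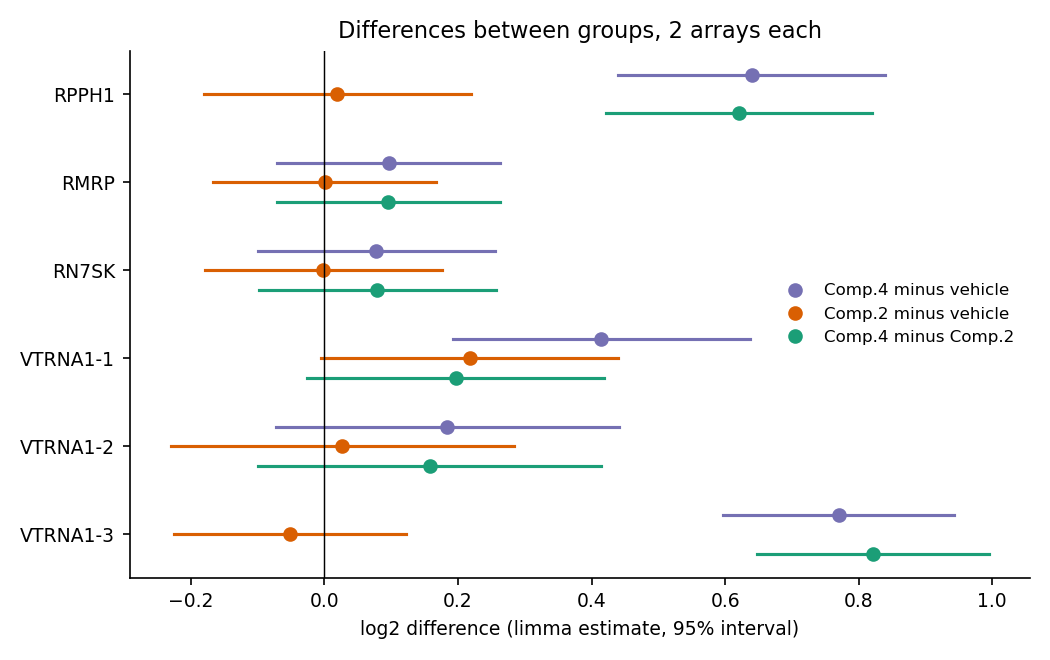
Log2 differences between groups for the 6 RNAs, with 95% intervals from limma, as Comp.4 minus vehicle, Comp.2 minus vehicle and Comp.4 minus Comp.2. The intervals of VTRNA1-3 and RPPH1 lie above 0 in both Comp.4 comparisons, and the Comp.2 minus vehicle interval of every member includes 0. Relative to other short RNAs the Comp.4 minus vehicle differences of VTRNA1-2, RMRP and RN7SK turn negative (-0.08, -0.17 and -0.19). The median of all genes on that scale is -0.25.

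The genes whose profile over the 6 arrays was closest to that of VTRNA1-3, by Euclidean distance of log2 values centred on each gene's mean, were short RNAs. SCARNA5, a guide RNA of Cajal bodies, was at a distance of 0.150, and the nucleolar guide RNAs SNORA12 and SNORA23 at 0.176 and 0.181. RPPH1 was the fourth closest of all genes at 0.213, followed by SNORA38B at 0.241. VTRNA1-1 was at 0.670, VTRNA1-2 at 0.762, RMRP at 0.816 and RN7SK at 0.845. By this distance RPPH1 was nearer to VTRNA1-3 than either other vault RNA was. The distance was not scaled for the size of a gene's differences, so it largely follows them. Comp.4 minus vehicle was 0.77 for VTRNA1-3, 0.64 for RPPH1, and 0.41 and 0.18 for the dim VTRNA1-1 and VTRNA1-2. These differences took part in the choice of the members, so nothing more is read from the order. SCARNA5 itself had log2 levels of 8.51 and 8.46 on the Comp.4 arrays, 7.74 and 7.82 on the Comp.2 arrays, and 7.81 and 7.71 on the vehicle arrays.

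Other short RNAs, made mostly by RNA polymerase II, were also higher in Comp.4 cells on average. The 139 brighter small nucleolar, Cajal body and RNU-named RNAs had a median Comp.4 minus vehicle difference of 0.27, beside 0.30 for the members. Brighter means a mean over the 6 arrays, Comp.4 arrays included, above the median gene. Of the 139, 114 had a difference above 0, where 5529 of all 11197 brighter genes did. Limma's threshold was passed by 5 of the 139 as higher and 1 as lower, where 0.0536% and 0.0938% of all genes did so. By class the brighter medians were 0.38 for 42 box H/ACA RNAs, 0.19 for 60 box C/D RNAs, 0.33 for 16 Cajal body RNAs and 0.27 for 21 RNU-named RNAs. With dim genes included they were 0.31 for 61 box H/ACA RNAs, 0.08 for 157 box C/D RNAs, 0.31 for 20 Cajal body RNAs and 0.01 for 109 RNU-named RNAs, so the RNU-named and box C/D values depend on that choice. The members' median of 0.30 includes the dim VTRNA1-1 and VTRNA1-2. SNORA38B rose by 0.88, SCARNA6 by 0.75, SCARNA5 by 0.73, SNORD71 by 0.68 and SNORA12 by 0.66 in Comp.4 cells against vehicle cells, and SCARNA3 fell by 1.47 on the log2 scale. Among the dim genes RNU4-9P fell by 1.22 and RNU7-55P by 0.85. Of the 139, 4 had a larger Comp.4 minus vehicle difference than VTRNA1-3, 15 than RPPH1, 39 than VTRNA1-1, 84 than VTRNA1-2, 97 than RMRP and 102 than RN7SK. In Comp.4 against Comp.2, 11 had a larger difference than VTRNA1-3, 35 than RPPH1, 85 than VTRNA1-1, 94 than VTRNA1-2, 103 than RMRP and 107 than RN7SK. Every member thus stood lower among the short RNAs against Comp.2 than against vehicle. VTRNA1-2, RMRP and RN7SK lay below the middle in both, and VTRNA1-1 lay below it against Comp.2.

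In Comp.4 against Comp.2 the same 139 RNAs had a median of 0.29, and 25 passed as higher and 0 as lower in limma. Over all genes 0.192% and 0.179% did so. At an unadjusted p under 0.05 in limma, 78 of the 139 were higher and 6 lower, where 7.52% and 7.45% of all genes were. The 25 were SNORA12, SNORA22, SNORA23, SNORA33, SNORA37, SNORA38, SNORA38B, SNORA50A, SNORA50C, SNORA57, SNORA65, SNORA68, SNORD3C, SNORD12, SNORD12B, SNORD63, SNORD69, SNORD117, SCARNA5, SCARNA6, SCARNA10, SCARNA23, RNU4ATAC, RNU5E-1 and RNU5A-8P, with differences from 0.61 (SNORA57) to 1.41 (SNORA38), and the dim RNU1-21P was higher by 0.78. The median of the members there was 0.18. In Comp.2 against vehicle the median of the 139 was -0.09, and 1, SCARNA7 (0.92), passed as higher, where 0.134% of all genes did. When each array was shifted so that its median over the 139 was equal, every gene moved by -0.27 in Comp.4 against vehicle. The median of all genes was then -0.25 in Comp.4 against vehicle and -0.32 in Comp.4 against Comp.2. On that scale VTRNA1-3 was higher in Comp.4 cells than in vehicle cells by 0.50, RPPH1 by 0.37 and VTRNA1-1 by 0.15, whereas VTRNA1-2 was at -0.08, RMRP at -0.17 and RN7SK at -0.19. Against Comp.2 the shift was -0.33, and VTRNA1-3 and RPPH1 were higher by 0.49 and 0.29 while the other 4 lay between -0.25 and -0.13. Over all genes this scale turned 12 higher and 21 lower calls in Comp.4 against vehicle into 58 and 7768, 43 and 40 in Comp.4 against Comp.2 into 66 and 13756, and 30 and 14 in Comp.2 against vehicle into 51 and 12. The labels' protocols name the RNeasy mini column kit. Columns of this kind bind short RNA less completely than long RNA, and what RNA recovery contributed to the members' differences was not tested.

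**Figure D3:**
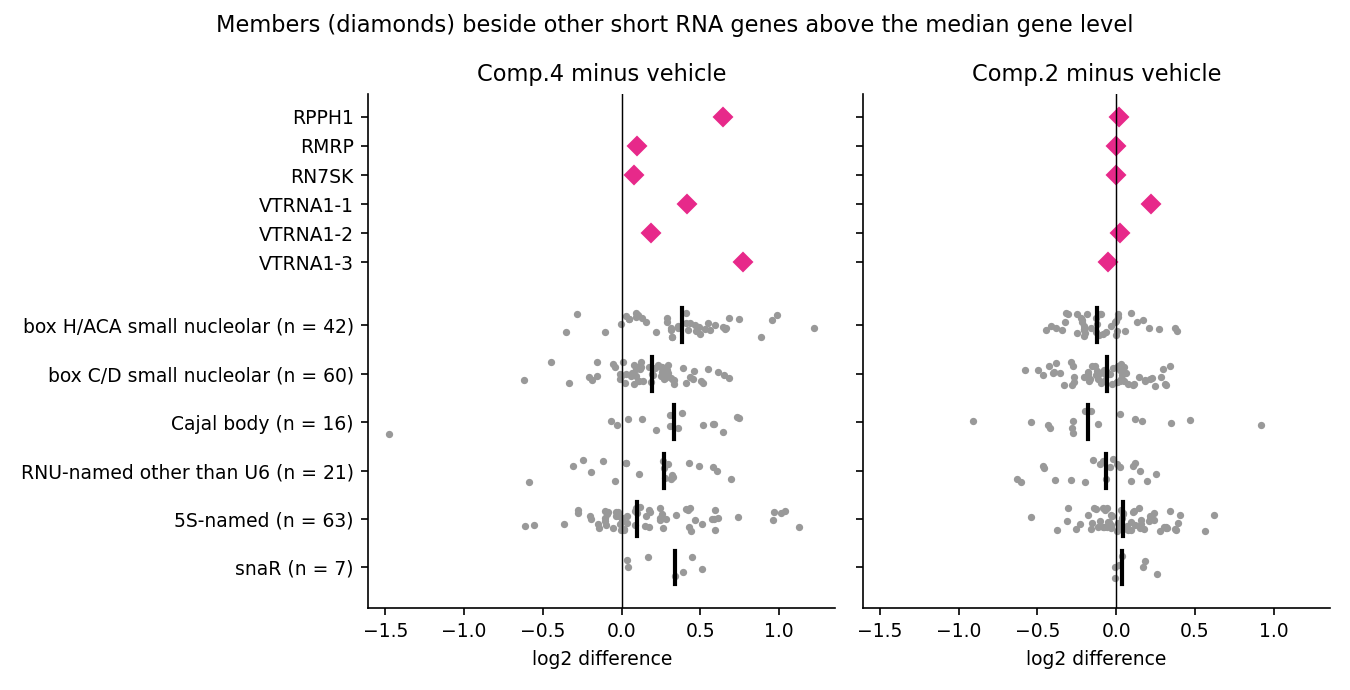
Log2 difference (horizontal axis) of single RNAs in Comp.4 minus vehicle (left) and Comp.2 minus vehicle (right): diamonds are the 6 members, 1 per row, and grey points are brighter genes of other short RNA classes, with a bar at each class's median. On the left, VTRNA1-3 (0.77) and RPPH1 (0.64) lie in the upper part of the range of the guide RNAs, whose class medians were 0.38 (box H/ACA), 0.33 (Cajal body) and 0.19 (box C/D), and RMRP (0.10) and RN7SK (0.08) lie below those medians, so that both become negative (-0.17 and -0.19) on a scale set by the short RNAs. The median of all genes on that scale is -0.25.

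Genes named after other transcripts of RNA polymerase III were taken by name alone. Many belong to families of similar copies, pseudogenes among them, and are uncertain as single genes. Whether each is transcribed was not tested. The 7 snaR RNAs, a primate family first found through its binding to a nuclear factor protein, had a median Comp.4 minus vehicle difference of 0.34. Above 0 were 7 of 7, where 54.9% of all genes were. SNAR-H was at 0.51 and SNAR-G2 at 0.45, and none of the 7 passed limma's threshold. SNAR-E had log2 levels of 12.11 and 12.09 on the Comp.4 arrays, 11.74 and 11.86 on the Comp.2 arrays, and 11.71 and 11.81 on the vehicle arrays. Of 447 genes with a 5S name, 3 passed limma's threshold as higher in Comp.4 against vehicle and 0 as lower. Over all genes 0.0536% and 0.0938% did so. The 3 were RN5S150 (1.13), RN5S19 (1.01) and RN5S199 (0.96). Of the 447, 269 had a difference above 0, where 54.9% of all genes did. The 63 brighter ones had a median of 0.09 beside 0.05 for all 447. In Comp.2 against vehicle RN5S70 (0.62) passed as higher, where 0.134% of all genes did. The dim RN5S122 (1.10) and the brighter RN5S150 (0.85) and RN5S19 (0.79) passed as higher in Comp.4 against Comp.2, where 0.192% of all genes did. The 34 U6-named genes had a median Comp.4 minus vehicle difference of 0.02. The 2 brighter ones, RNU6ATAC and RNU6-57P, were at 0.34 (adjusted p = 0.160) and 0.29 (adjusted p = 0.316) in limma with their Comp.4 arrays above their vehicle arrays, and the dim RNU6-82P fell by 0.94. Neither the 9 pseudogenes of 7SK (median 0.03) nor the 35 of the Y RNAs (median 0.03) held a gene past limma's threshold in Comp.4 against vehicle. The Y RNA pseudogenes are not a stand-in for the 4 Y RNAs, for which no value is given.

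The genes of the proteins that make or carry the members were read from 6 lists, of which 59 genes of 64 had a probe set with 1 symbol. None of the 59 passed limma's threshold in any comparison. At an unadjusted p under 0.05, 8 of the 59 were higher and 5 lower in Comp.4 against vehicle, where 8.64% and 7.88% of all genes were. In Comp.2 against vehicle 2 were higher and 4 lower, where 6.23% and 4.94% of all genes were, and in Comp.4 against Comp.2 10 were higher and 4 lower, where 7.52% and 7.45% of all genes were. These counts are few, and those of lower genes lie near the shares of all genes. With a variance trend in limma, 5 passed in Comp.4 against vehicle, 0 in Comp.2 against vehicle and 8 in Comp.4 against Comp.2. Of all 22395 genes, 1226, 388 and 1075 passed under that setting, in the same order, so calls rose across the whole array there.

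The 17 subunits of RNA polymerase III itself had a median Comp.4 minus vehicle difference of 0.08. Of the 17, 10 were above 0, where 54.9% of all genes were. POLR2H and POLR2K, subunits shared with other RNA polymerases, were at 0.23 (adjusted p = 0.200) and 0.22 (adjusted p = 0.252) in limma. POLR3G, a subunit form typical of stem and tumour cells, was at -0.33 in Comp.2 against vehicle (adjusted p = 0.357), the farthest from 0 of the 17. POLR3A, the largest catalytic subunit, was at -0.24 (adjusted p = 0.348) there. In Comp.4 against Comp.2 POLR3G and POLR2H were at 0.31 (adjusted p = 0.261) and 0.29 (adjusted p = 0.157). Among the 18 transcription factors the median was 0.01. SNAPC1 and SNAPC4 belong to one complex, which binds the promoters of the RPPH1, RMRP and RN7SK kind, and were at 0.30 (adjusted p = 0.125) and -0.31 (adjusted p = 0.164) in Comp.4 against vehicle. In Comp.2 against vehicle SNAPC4 was at -0.29 (adjusted p = 0.312) and GTF3C4, a subunit of TFIIIC, at -0.21 (adjusted p = 0.357). BRF1 and BRF2, the alternative initiation factors of the internal and the upstream promoters, were at 0.01 and 0.02. The repressor MAF1 was at 0.34 (adjusted p = 0.171) and the initiation factor BDP1 at -0.31 (adjusted p = 0.165) in Comp.4 against Comp.2.

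The 10 protein genes of RNase P and RNase MRP had the highest list median in both Comp.4 comparisons, 0.14 against vehicle and 0.18 against Comp.2. The medians of all genes were 0.02 and 0.01. In each comparison 8 of the 10 were above 0, where 54.9% and 52.3% of all genes were. POP5, a core subunit, had log2 levels of 6.52 and 6.41 on the Comp.4 arrays, 6.24 and 6.28 on the Comp.2 arrays, and 5.98 and 6.21 on the vehicle arrays. RPP40, another subunit, had 6.90 and 6.85 on the Comp.4 arrays, 6.60 and 6.57 on the Comp.2 arrays, and 6.62 and 6.51 on the vehicle arrays. Both were separated from vehicle in Comp.4 cells, by 0.37 (SE 0.10, adjusted p = 0.158) and 0.31 (SE 0.07, adjusted p = 0.136), and neither passed limma's threshold. RPP25 and RPP40 were at 0.31 (adjusted p = 0.242) and 0.29 (adjusted p = 0.165) in Comp.4 against Comp.2, and POP5 and RPP25L at 0.17 and -0.15 in Comp.2 against vehicle. POP1, the largest subunit, was at -0.06 in Comp.4 against vehicle and -0.17 against Comp.2.

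Among the 7 genes of the 7SK particle and P-TEFb the median Comp.4 minus vehicle difference was -0.02. LARP7 and MEPCE, which stabilise and cap the 7SK RNA, were at 0.01 and -0.01, and HEXIM1, the inhibitor that the particle presents to the kinase, was at -0.09 (-0.19 in Comp.4 against Comp.2). The kinase CDK9 was at -0.17 (adjusted p = 0.336), and the alternative cyclin CCNT2 was at -0.15 (adjusted p = 0.480), or -0.11 in Comp.2 against vehicle. The main cyclin CCNT1 was at 0.24 (adjusted p = 0.320) in Comp.2 against vehicle and at -0.26 (adjusted p = 0.184) in Comp.4 against Comp.2. No gene of this list had an unadjusted p under 0.05 in Comp.4 against vehicle, and the members' RNA of this particle, RN7SK, was at 0.08.

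Of 3 genes tied to the vault RNAs, PARP4, a vault protein, had log2 levels of 10.15 and 10.20 on the Comp.4 arrays, 10.51 and 10.46 on the Comp.2 arrays, and 10.46 and 10.51 on the vehicle arrays. Its Comp.4 arrays lay below the other 4, opposite to VTRNA1-3, with a difference from vehicle of -0.31 (SE 0.07, adjusted p = 0.127) that did not pass limma's threshold. MVP, the main protein of the vault shell, was at 0.09, and NSUN2, which methylates vault RNAs, at -0.06. SSB, the La protein that binds the ends of new RNA polymerase III transcripts, was at 0.07, and RO60, the Y RNA binding protein, at -0.12. PTBP1 and NCL, which also bind Y RNAs, were at -0.23 (adjusted p = 0.190) and -0.21 (adjusted p = 0.233) in Comp.4 against vehicle. The array signal measures the RNA of these genes and not their proteins.

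**Figure D4:**
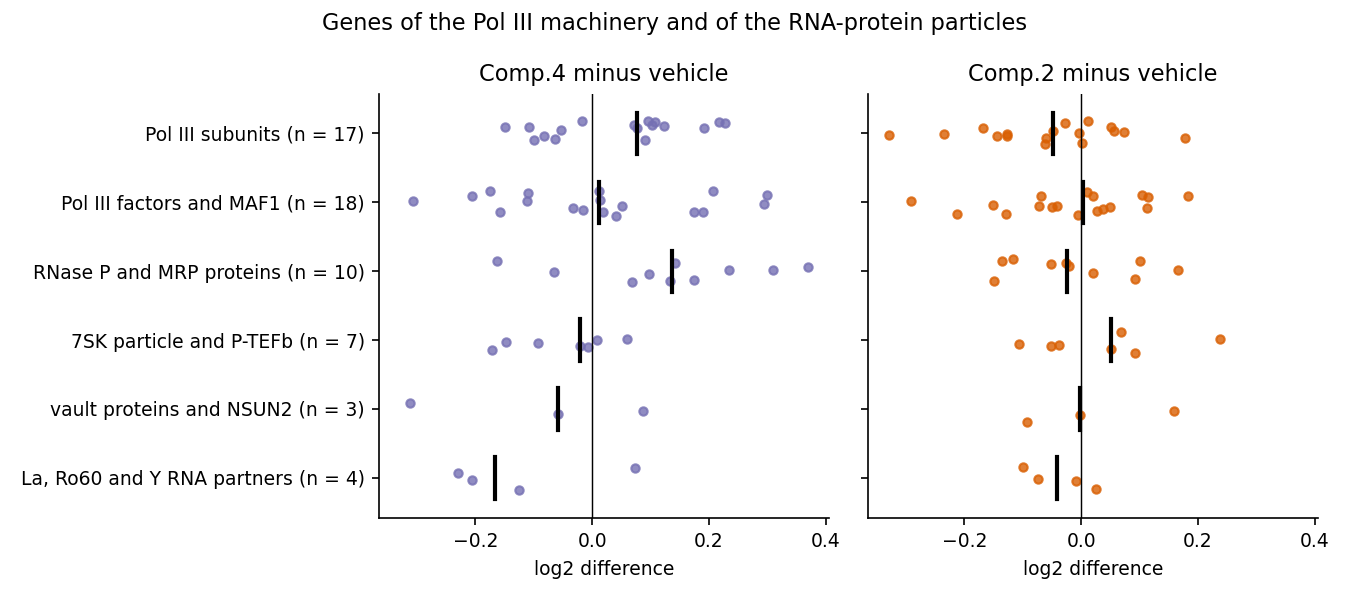
Log2 difference (horizontal axis) of the 59 protein partner genes in Comp.4 minus vehicle (left) and Comp.2 minus vehicle (right), 1 row per list and 1 point per gene, with a bar at each list's median. On the left, the RNase P and MRP proteins have a median of 0.14 and the other 5 lists lie between -0.17 and 0.08; none of the 59 genes passed limma's threshold.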

How the data were processed

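RNA of 6 A549 samples was hybridised to Affymetrix whole-transcript arrays after labelling 100 ng of total RNA, per the labels' protocols. The deposited values are log2 signals made by the authors with RMA, per the submitters' processing notes. Transcriptome Analysis Console 2.0 and Affymetrix Expression Console 1.3.1 are the programs those notes list. RMA makes the distribution of all arrays alike, so a change shared by most transcripts is not visible. No other value column was left unused (0). The members and lists were chosen with earlier results of these data known.

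Of 53617 probe sets, 23871 had 1 gene symbol, 1842 several and 27904 none here. Of the 23871, 22569 were found by Entrez number in a RefSeq table of GRCh38.p14 genes, and 90 symbols were updated from it. The brightest probe set over the 6 arrays stood for a gene, which left 22395 genes, 11197 of them above the median gene level of 5.35. limma 3.58.1 in R 4.3.3 fitted a mean per group to all 6 arrays (3 residual and 3.71 prior degrees of freedom), with 3 contrasts, two-sided p-values adjusted by Benjamini-Hochberg over all genes and a threshold of 0.05. The fit was tested on simulated data. An exact permutation test of single values was not run. Figures were drawn with matplotlib 3.10.9.

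The text names every member and, from each protein list, the genes past the threshold or otherwise the 2 with the largest difference in each contrast, plus subunits of the members' own particles. From the other short RNA classes it names every gene past the threshold and, of the up to 3 brighter ones per contrast that the rule also gives, only some. The 5 genes nearest to the member with the largest difference were taken by Euclidean distance. SNAR-E and VTRNA2-1 levels were chosen for display after their values were seen. Marker lists of epithelium, fibroblasts, endothelium and leukocytes were read as levels. Of 21 such genes 0 passed the threshold in limma in any contrast, with 2 higher and 2 lower at an unadjusted p under 0.05 in Comp.4 against vehicle, 4 and 0 in Comp.2 against vehicle, and 0 and 2 in Comp.4 against Comp.2. Alternatives covered the variance trend, the replicate number as a block, filters on dim genes, the choice of probe set, scaling by upper quartile or by short RNAs, fits of 2 groups only and leaving out each array. RNA and promoter sequences of the members were not used here.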

Additional observations from a re-analysis of the deposited data

How the results depend on the processing

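Precision rests on 2 arrays a group, differences of dim genes such as VTRNA1-2 may be compressed, and no detection calls were used. Members called in limma with 1 in Comp.4 against vehicle numbered 2 with a variance trend, 2 with brighter genes only (of the 4 members left) and 2 with centring on the short RNAs, and 0 with the replicate block, with 2 groups only and without any 1 array; 3 members had an unadjusted p under 0.05 with the block and with 2 groups only. With 2 called in Comp.4 against Comp.2, centring on the short RNAs gave 4 (VTRNA1-3 and RPPH1 higher, RMRP and RN7SK lower). The block, all probe sets and 2 groups only gave 0, with 2 at an unadjusted p under 0.05 under each of these settings. Among all 22395 genes, that centring called 66 higher and 13756 lower in Comp.4 against Comp.2, and 58 and 7768 in Comp.4 against vehicle. Counts over all genes under the other settings follow in the next paragraph. In Comp.2 against vehicle 0 members were called under every alternative, with at most 1 at an unadjusted p under 0.05 outside the fits that leave out an array. The members' median of 0.30 in Comp.4 against vehicle was 0.033 with short RNA centring and 0.24 to 0.37 with an array left out, that of 0.18 in Comp.4 against Comp.2 was -0.15 and 0.15 to 0.20, and that of 0.01 in Comp.2 against vehicle was 0.074 and -0.03 to 0.05.

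Genes called among all 22395, for Comp.4 and then Comp.2 set against vehicle, and last for Comp.4 against Comp.2, were 33, 44 and 83 as reported. They were 1226, 388 and 1075 with the variance trend, 839, 233 and 716 with brighter genes only, 99, 0 and 2 with all probe sets (0 beside 2303 higher and 2459 lower at an unadjusted p under 0.05 in limma), 7826, 63 and 13822 with short RNA centring, and 0, 14 and 0 with 2 groups only. The last 2 zeros stand beside 1999 higher and 1767 lower in Comp.4 against vehicle, and 1448 and 1400 in Comp.4 against Comp.2, at an unadjusted p under 0.05. Leaving out 1 array gave 0 to 0, 0 to 14 and 0 to 1. Same-numbered arrays did not deviate together (correlations of 0.012, 0.029 and -0.042 between pairs of groups). These correlations cannot show whether same-numbered arrays were prepared as pairs. With the replicate block 4, 15 and 0 genes passed in limma, the 0 beside 1609 higher and 1518 lower at an unadjusted p under 0.05. Protein partner genes called numbered 0 in each comparison as reported, and in Comp.4 against vehicle and Comp.4 against Comp.2 they were 5 and 8 with the variance trend, 4 and 4 with brighter genes only, and 24 and 39 (all lower) with short RNA centring. No median of the members is given for brighter genes only, since VTRNA1-1 and VTRNA1-2 drop out. Why calls move with these settings was not tested.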

Other observations

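The nearest tested genes on either side of the members in the GRCh38.p14 gene table were looked up after the members' values were seen. Genes without a tested probe set were passed over, so these need not be the adjacent genes. All were protein-coding, and none passed limma's threshold in any comparison. Beside RPPH1, PARP2, a DNA break sensor, had a Comp.4 minus vehicle difference of -0.16 (SE 0.09) and CCNB1IP1 one of -0.06 (SE 0.08), against 0.64 for RPPH1. PARP2 arrays of Comp.4 cells, at 6.65 and 6.76, lay below those of vehicle cells, at 6.94 and 6.80. Beside RMRP, CCDC107 was at 0.19 (SE 0.08) and the dim SIT1 at 0.10 (SE 0.17), and beside RN7SK, GSTA4 was at 0.10 and CILK1 at -0.16. On either side of the vault RNA cluster, ZMAT2 was at 0.11 and the dim PCDHB1 at -0.07, against 0.77 for VTRNA1-3.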
